A study of Homo sapiens with 12 samples.

Results

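The genes described here are named as snoRNA host genes, a class whose introns carry small nucleolar RNAs. They were taken from the count table by name, as every gene called SNHG with a number, together with GAS5, ZFAS1, EPB41L4A-AS1, DANCR, TAF1D and CWF19L1, and without entries named as numbered copies. This gave 34 of the 44659 genes in the table, of which 32 were annotated as long non-coding RNA and 2, TAF1D and CWF19L1, as protein-coding. They lay on 16 chromosomes in GENCODE v44 (GRCh38).

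Small nucleolar RNAs guide the chemical modification of ribosomal and small nuclear RNA. Box C/D snoRNAs direct 2′-O-methylation with the methyltransferase fibrillarin, box H/ACA snoRNAs direct pseudouridylation with dyskerin, and scaRNAs act in Cajal bodies. In human cells most are cut out of the introns of a host transcript after splicing. The spliced exons of many hosts encode no conserved protein and, once bound by ribosomes, are degraded by nonsense-mediated decay, for which GAS5, a transcript first found in growth-arrested cells, is the classic case. Many hosts are also transcribed from a start at a C followed by further pyrimidines, the 5′ terminal oligopyrimidine (TOP) motif shared with the messenger RNAs of ribosomal proteins. This is background and not a result of these data.

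RNA was sequenced from A375, a human BRAF-mutant melanoma line, in 4 groups of 3 libraries. Control cells (CC) had DMSO for 72 h. Treated cells (TC) had 500 nM vemurafenib and 500 nM cobimetinib, inhibitors of BRAF and MEK (MAPKi), for 72 h. Persister cells (PC) had the same 72 h of MAPKi and then 2 days in medium without drug, and recovered cells (RC) had 9 such days. All libraries came from 1 cell line in the same medium, no control was harvested with PC or RC, and time in culture cannot be told apart from drug history in those groups. The methods of the study describe TC, PC and RC as experimental batches A, B and C. Batch therefore cannot be told apart from time without drug. The labels do not say whether the 3 libraries of a group were separate cultures, so the p-values measure the spread between these libraries only.

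Total counts ran from 37773389 to 55567097 per library. All 9 melanocyte lineage markers were detected in every group, although MLANA was low, and they summed to between 1683 and 1910 CPM (counts scaled to the TMM-normalized library size) in CC. Their sum was higher in TC, where DCT had the largest rise (log2 fold change 3.99) and S100B the largest fall (-0.91). Markers of other cell types summed to at most 2.82 CPM in any library, with CD3E, KRT5 and PECAM1 at or near 0. PTPRC was at 0.466 to 0.655 CPM in CC and at 0 to 0.0746 CPM in TC, and KRT14 at 0 to 0.0452 CPM in CC, 0.261 to 0.544 CPM in TC and 1.93 to 2.64 CPM in PC. The labels describe the RNA as cytoplasmic, whereas the methods of the study describe total RNA. Of the nuclear-retained RNAs, MALAT1 was at 0.487 to 0.858 CPM in CC and NEAT1 at 193 to 378 CPM. KCNQ1OT1 was at 1.49 to 2.57 CPM there, RN7SK at 0.321 to 0.407 CPM and MEG3 at 0. Which of the 2 descriptions of the RNA holds was not tested.

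Annotated starts of the snoRNA host genes are shown first, because a pyrimidine start is the sequence feature by which many of these genes are known. The RefSeq promoter table held 30 of the 34 genes. SNHG6, SNHG9, SNHG15 and SNHG25 were not matched. A start was counted as a pyrimidine start where the annotated first base was C and at least 4 further bases in a row were C or T. This held for 8 of 30 host genes (26.7%) and for 1429 of 35116 starts in the whole table (4.07%). With the run allowed to begin up to 5 bases to either side, the shares were 46.7% and 21.1%. At the first base of the canonical GENCODE transcript, an alternative chosen after the data were seen, it held for 5 of 34 (14.7%), against 2.79% of 18866 lncRNA genes and 4.58% of 20046 protein-coding genes. SNHG12, TAF1D and ZFAS1 met the rule in both annotations and 10 genes in either, so the start base depended on the annotation. A match describes these letters and is not evidence of a start in A375 cells.

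The windows below, from RefSeq on GRCh38.p14, begin 6 bases before the annotated start and run 5′ to 3′ on the gene's own strand. Capitals mark an unbroken run of C and T that begins with C at the start. The first 5 are host genes with such a run and the last 3 are host genes without one, chosen because they are described below.
SNHG4, chr5:139274095-139274120, plus strand: cggctgCCCTTTCCCCTCCggcctct
SNHG12, chr1:28581854-28581879, minus strand: cagcgcCCTTTCTCCCCgccgcattc
SNHG19, chr16:2155339-2155364, minus strand: ccctgtCTTTTCggggtcgagtccga
SNHG5, chr6:85678714-85678739, minus strand: ttcggtCTTTTacgtcggccttcgcg
ZFAS1, chr20:49278636-49278661, plus strand: ttcgttCTTTCgcgtctgcggtgccc
EPB41L4A-AS1, chr5:112160520-112160545, plus strand: gaattctgtcgggtcccaaaatacgt
SNHG10, chr14:95534853-95534878, minus strand: tgccggagcctcatcctactgcctta
SNHG3, chr1:28505937-28505962, plus strand: gtttctgattctctaactgcgcatgc

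In GAS5 and SNHG29 the run appeared only at the canonical GENCODE start, which is the first base of the lines below. These are shown because the same gene met the rule in one annotation and not in the other.
GAS5, chr1:173867966-173867989, minus strand: CTTTTCgaggtaggagtcgactcc
SNHG29, chr17:16439037-16439060, plus strand: CTTTTCattcccgttgttatggag

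Of the 34 host genes, 26 had a mean count of at least 10 after scaling to library size and were tested. The other 8 were too low. SNHG31 had 115 counts summed over the 12 libraries, SNHG25 had 110 and SNHG26 had 27. SNHG9 and SNHG32 had 2 each, SNHG28 had 1, and SNHG22 and SNHG27 had none. The value of SNHG32 leaves out the counts of its numbered copies, which were not among the host genes. The host genes together took 0.170% ± 0.0075 of the counts in CC, 0.0879% ± 0.0087 in TC, 0.114% ± 0.0045 in PC and 0.121% ± 0.0041 in RC (SD, n = 3). SNHG16, SNHG29, SNHG5 and ZFAS1 held 55.5% of these counts, which reflects transcript length as well as level.

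The comparison of TC with CC asked how host transcripts stood after 72 h of MAPKi. They were lower almost throughout. SNHG3 and SNHG4 had the largest falls, 10.9-fold and 10.1-fold, and SNHG1, SNHG19, TAF1D, SNHG21 and SNHG12 fell by 4-fold or more. GAS5, ZFAS1, SNHG5 and DANCR fell by 2.21-fold to 3.12-fold. SNHG11, SNHG18 and SNHG20 did not pass the test.

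Of the 26 tested host genes, 23 were lower in TC (88.5%) and 0 were higher, by the quasi-likelihood test of edgeR with adjustment over all 15916 tested genes. Of all tested genes, 34.7% were lower and 33.2% were higher. None was higher at an unadjusted p under 0.05 or in DESeq2 either. Beyond 1.5-fold 20 were lower and 0 higher, against 19.3% and 16.1% of all genes. The median log2 fold change was -1.19 over the host genes and -0.02 over all genes. In 22 of the host genes every TC library lay below every CC library, which held for 34.7% of all genes, and in 0 did every TC library lie above, against 33.3%. A lower CPM is a smaller share of the sequenced RNA, and fewer cells with a transcript and less of it per cell cannot be told apart in these data.

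SNHG3 (chromosome 1, 28505980 to 28510892, plus strand), which carries SNORA73A and SNORA73B, was at 39.9, 55.3 and 27.1 CPM in CC and at 3.55, 3.65 and 3.94 CPM in TC. The CC libraries differed by more than those of any other group, but none came near TC. The gene was 10.9-fold lower, a log2 fold change of -3.45 (adjusted p 2.9e-08, SE 0.21).

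SNHG4 (chromosome 5, 139274102 to 139284899, plus strand), the host of SNORA74A, was at 18.6, 18.0 and 13.6 CPM in CC and at 1.55, 1.69 and 1.70 CPM in TC. The groups did not overlap, and the log2 fold change was -3.34 (SE 0.14, adjusted p 1.5e-09). The gene shares 14.0% of its exon bases with MATR3 on the same strand, which encodes a nuclear matrix protein and had a log2 fold change of -0.17 (adjusted p 0.075).

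SNHG1 (chromosome 11, 62851978 to 62855953, minus strand) carries 8 box C/D snoRNAs. It was at 90.9, 88.3 and 86.0 CPM in CC and at 16.6, 16.6 and 15.2 CPM in TC, where the libraries within each group lay close together. Its log2 fold change was -2.46 (SE 0.09, adjusted p 6.3e-10).

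GAS5 (chromosome 1, 173858559 to 173868882, minus strand) holds 11 snoRNA genes, 10 of them box C/D. It was at 32.9, 36.1 and 28.5 CPM in CC and at 14.3, 12.7 and 11.7 CPM in TC. All 3 TC libraries were below all CC libraries, with a log2 fold change of -1.34 (adjusted p 1.9e-06, SE 0.13).

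SNHG5, the host of SNORD50A and SNORD50B, was at 154, 181 and 139 CPM in CC and at 47.5, 54.1 and 50.2 CPM in TC. It fell 3.12-fold (log2 fold change -1.64, SE 0.10, adjusted p 2.3e-08). ZFAS1, the host of the SNORD12 genes, was at 141, 139 and 128 CPM in CC and at 64.3, 62.3 and 57.6 CPM in TC, a log2 fold change of -1.15 (adjusted p 2.5e-08, SE 0.07). Neither gene had overlapping groups. ZNFX1, the neighbour whose start lies against that of ZFAS1 on the other strand, rose, with a log2 fold change of 1.46 (adjusted p 4.9e-07).

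The host genes with the most counts changed least among those called. SNHG16, the host of the SNORD1 genes, was at 324, 321 and 288 CPM in CC and at 296, 246 and 216 CPM in TC. Its groups overlapped, and the log2 fold change was -0.30 (SE 0.11, adjusted p 0.031). SNHG29 was at 289, 255 and 285 CPM in CC and at 212, 224 and 202 CPM in TC, without overlap and with a log2 fold change of -0.38 (adjusted p 0.00037, SE 0.07).

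The calls of SNHG16 and SNHG10 were lost in some alternatives. Both were lost when only the 2 groups compared were fitted, and SNHG10 with a filter on a summed count of at least 2. SNHG16 was not called without CC replicate 1 or 2 or TC replicate 2 or 3, nor SNHG10 without CC replicate 2 or TC replicate 3, with adjusted p of up to 0.133 and 0.104 over all alternatives. SNHG18, with a log2 fold change of -0.42 (adjusted p 0.072), was called lower without CC replicate 3 or TC replicate 1 (adjusted p down to 0.014). It was also called lower with the replicate block.

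**Figure D1:**
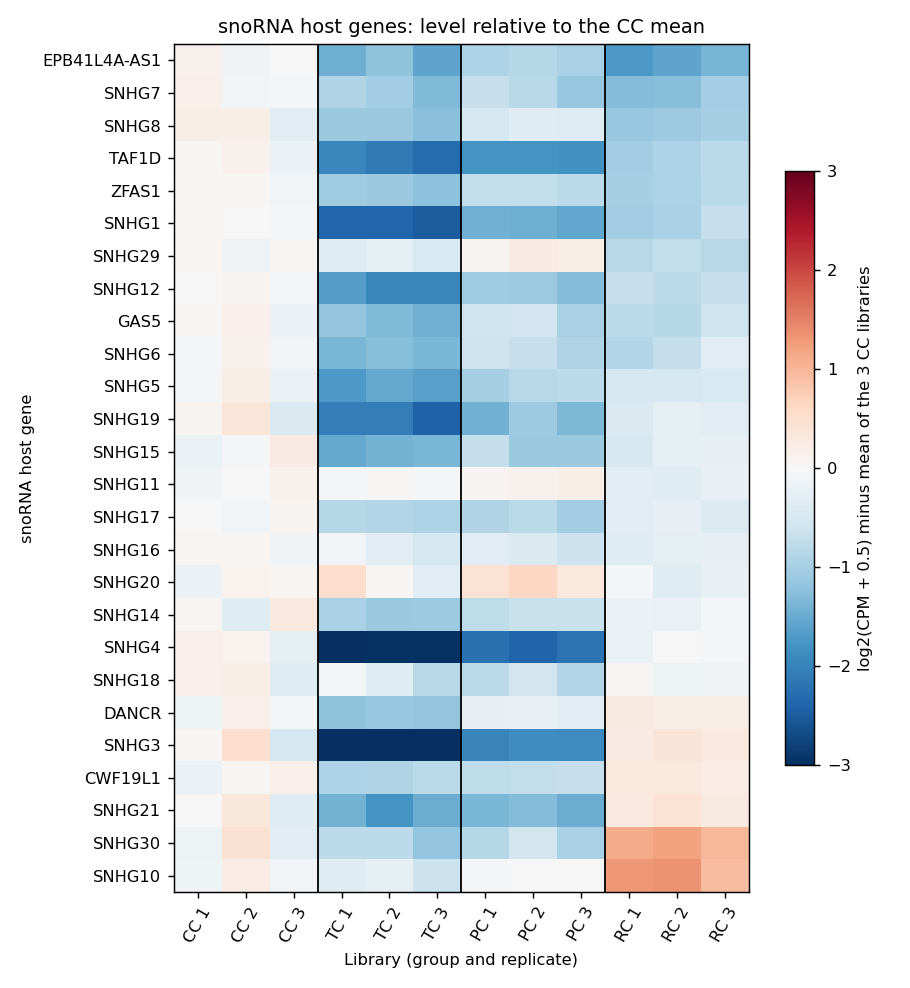
Heat map of the 26 tested snoRNA host genes (vertical axis, ordered by the RC versus CC fold change) in the 12 libraries (horizontal axis). Colour gives log2(CPM + 0.5) minus the mean of the 3 CC libraries, from -3 (blue) to 3 (red). SNHG3 and SNHG4 are the darkest in TC, and SNHG30 and SNHG10 are the reddest in RC.

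Host genes were also set beside other genes of the pathway in TC, where 34.7% of all tested genes were lower and 33.2% higher. Among 47 tested protein-coding snoRNA hosts, mainly ribosomal protein and translation factor genes, 38 were lower and 3 were higher (median log2 fold change -0.82). Their largest rise was in HSPA8, a constitutive chaperone, with a log2 fold change of 0.87 (adjusted p 2.6e-06), and their largest fall in RPS2, at -5.33 (adjusted p 0.0074). RPS2 was at 118, 3.14 and 69.7 CPM in CC and at 1.43 to 1.79 CPM in TC, a spread in CC that makes its size uncertain. Without CC replicate 1 the log2 fold change was -4.53 (adjusted p 0.023).

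Of 20 tested genes of the snoRNP core and its assembly, 15 were lower and 1 was higher (median -0.69). DKC1, which encodes dyskerin, was at 170, 162 and 220 CPM in CC and at 71.4, 74.2 and 79.5 CPM in TC (log2 fold change -1.29, adjusted p 4.2e-07). RUVBL2, an ATPase of the snoRNP assembly complex, fell most (-1.46, adjusted p 1.3e-09). NOP10, the gene called higher, was at 60.2 CPM in TC replicate 3 and at 5.35 to 6.71 CPM in the other CC and TC libraries, and without that library its log2 fold change was 0.09 (adjusted p 0.623). The call was also lost without CC replicate 2 (adjusted p 0.0515) or CC replicate 3 (0.0522). FBL, which encodes fibrillarin, was listed at 2.33 to 2.54 CPM in CC and at 2.51, 0.588 and 0.653 CPM in TC, and did not pass the test (adjusted p 0.327).

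Factors of nonsense-mediated decay were divided. Of 22 tested, 11 were lower and 3 were higher (median -0.33). NBAS fell most (-0.90, adjusted p 1.8e-06) and SMG5 rose most (0.67, adjusted p 0.0012). UPF1, the central helicase of the pathway, had a log2 fold change of -0.07 (adjusted p 0.344), from 154, 148 and 176 CPM in CC to 154, 152 and 148 CPM in TC. Of 22 tested regulators of TOP messenger RNAs, 11 were lower and 6 were higher (median -0.17). EIF4EBP1, an inhibitor of cap-dependent translation, fell (-1.73, adjusted p 3.7e-10) and its relative EIF4EBP2 rose (1.25, adjusted p 9.0e-09). LARP1, which binds the TOP motif, was lower (-0.71, adjusted p 0.0013).

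Long non-coding RNAs that are not snoRNA hosts were divided too, with 10 of 21 tested lower and 5 higher (median -0.40). MIR17HG, the host of the miR-17-92 cluster, had the largest fall (-3.46, adjusted p 0.0001) and CASC15 the largest rise (2.15, adjusted p 1.1e-05). MIR17HG was at 1.65 CPM in CC replicate 2 and at 0.518 and 0.656 CPM in the other CC libraries, and without replicate 2 its log2 fold change was -2.78. Nuclear-retained RNAs, nearly all of it NEAT1, summed to between 195 and 381 CPM in CC and between 64.6 and 69.2 in TC, with 2 of 4 tested lower and 1 higher, and MEG3 at 0. KCNQ1OT1 fell most (-2.37) and RN7SK rose most (1.19, adjusted p 0.023, with the call lost without CC replicate 1, CC replicate 3 or TC replicate 3, at adjusted p of 0.0645, 0.055 and 0.122). All 6 proliferation markers were lower (median -3.70), with MKI67 at -4.01 and TOP2A at -4.52. The 2 mitochondrial ribosomal RNAs took 1.31% to 2.15% of the counts in CC and 2.73% to 3.26% in TC. The part of these in the fall of the host genes was not tested.

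**Figure D2:**
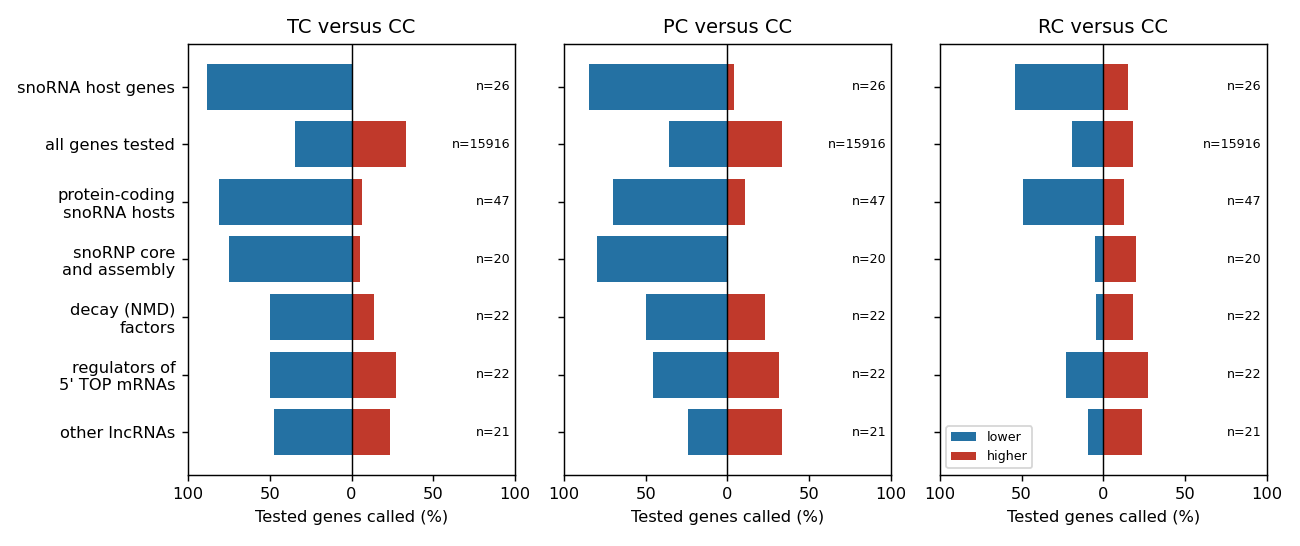
Percent of the tested genes of each list called lower (blue, to the left) or higher (red, to the right) at an adjusted p under 0.05, for TC, PC and RC against CC; n is the number tested. In TC 88.5% of the snoRNA host genes are lower and none higher, while all genes divide into 34.7% lower and 33.2% higher.

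The comparison of PC with CC asked what remained 2 days after the drug was removed. Most host genes were still lower than in CC. SNHG4, SNHG3 and SNHG21 were the lowest against CC, and SNHG29 was the single host gene called higher. TC, PC and RC were all set against the same CC libraries, so the values of the 3 comparisons are not independent.

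In PC 22 host genes were lower (84.6%) and 1 was higher, against 35.9% and 33.2% of all tested genes. Beyond 1.5-fold 14 were lower and 0 higher, against 19.9% and 17.2%. In 22 every PC library lay below every CC library and in 2 above, against 36.1% and 34.0%. The median log2 fold change was -0.83, against -0.04 over all genes.

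SNHG4 was at 3.14, 2.72 and 3.19 CPM in PC, with a log2 fold change of -2.47 (adjusted p 1.2e-08, SE 0.14). SNHG3 was at 9.47, 10.3 and 10.2 CPM (log2 fold change -2.02, SE 0.19, adjusted p 1.5e-06). For both, each PC library was below each CC library and above each TC library.

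SNHG21 (chromosome 15, 82750564 to 82757206, plus strand), the host of SCARNA15, was at 3.11, 4.07 and 2.29 CPM in CC, at 0.829, 0.537 and 0.783 CPM in TC and at 0.889, 0.956 and 0.786 CPM in PC. The TC and PC libraries overlapped and both lay below CC. Its log2 fold change in PC was -1.84 (SE 0.24, adjusted p 2.0e-05). The gene shares 34.1% of its exon bases with FSD2 on the opposite strand, which had a log2 fold change of -0.50 (adjusted p 0.36).

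GAS5 was at 21.1, 21.4 and 16.3 CPM in PC, below all CC libraries (log2 fold change -0.73, SE 0.13, adjusted p 0.00027). SNHG5 was at 78.2, 87.9 and 91.1 CPM (-0.88, SE 0.10, adjusted p 4.4e-06) and ZFAS1 at 80.8, 81.8 and 76.8 CPM (-0.77, SE 0.07, adjusted p 7.6e-07). SNHG16, at 248, 229 and 197 CPM, had a log2 fold change of -0.47 (adjusted p 0.0024, SE 0.11). None of these overlapped with CC.

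SNHG29, the host of SNORD49A, SNORD49B and SNORD65, was at 294, 326 and 313 CPM in PC, above all CC libraries. The log2 fold change was 0.17 (SE 0.07, adjusted p 0.042). The call was lost without CC replicate 2, PC replicate 2 or PC replicate 3, with an adjusted p of up to 0.142 over all alternatives. It was also lost with a filter on a summed count of at least 2, the replicate block and only the 2 groups compared. SNHG20, at 0.51 (adjusted p 0.064), was called higher without TC replicate 1 or 3 (adjusted p down to 0.023). DESeq2 and the fit of only the 2 groups compared also called it higher.

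In PC, 33 of 47 protein-coding hosts were lower and 5 higher (median -0.43), and 16 of 20 snoRNP genes were lower and 0 higher (median -0.51). The shares of all tested genes were 35.9% lower and 33.2% higher. The decay factors had 11 lower and 5 higher, the TOP regulators 10 lower and 7 higher, and the other long non-coding RNAs 5 lower and 7 higher. UPF1 was lower in PC (-0.57, adjusted p 8.4e-06). All 6 proliferation markers were lower (median -1.81), 7 of 9 melanocyte lineage markers were higher and 1 was lower, and nuclear-retained RNAs summed to between 76.0 and 85.3 CPM. Their part in the values of the host genes was not tested.

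**Figure D3:**
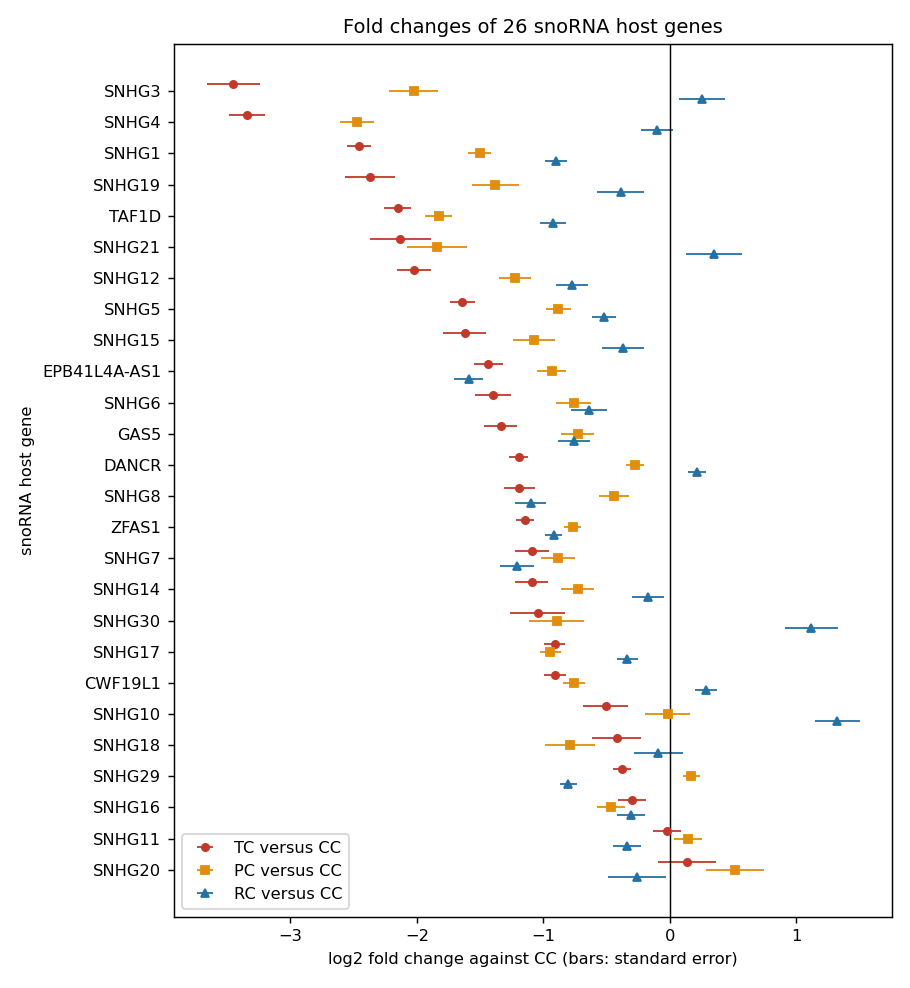
Log2 fold changes against CC (horizontal axis; bars show the standard error) of the 26 tested host genes (vertical axis, ordered by TC versus CC) for TC (circles), PC (squares) and RC (triangles). SNHG3 lies at -3.45 in TC, -2.02 in PC and 0.25 in RC, while EPB41L4A-AS1 lies at -1.44, -0.93 and -1.59.

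The direct comparison of PC with TC asked what moved in the first 2 days without drug. The host genes moved upward, led by SNHG3, SNHG19, SNHG1 and DANCR. Of 26, 15 were higher in PC (57.7%) and 0 were lower, against 12.2% and 12.5% of all tested genes. None was lower at an unadjusted p under 0.05 or in DESeq2. The median log2 fold change was 0.50 over the host genes and 0.00 over all genes, and beyond 1.5-fold 3 were higher and 0 lower, against 2.33% and 1.15% of all genes. In 19 every PC library lay above every TC library and in 0 below, against 23.7% and 23.4%. The protein-coding hosts rose as well, with 27 of 47 higher and 2 lower (median 0.32). Of 20 snoRNP genes, 4 were higher and 1 was lower (median 0.10).

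SNHG3 rose from the TC levels above to 9.47 to 10.3 CPM, with a log2 fold change of 1.43 (adjusted p 0.00039, SE 0.20). SNHG19 (chromosome 16, 2154792 to 2155405, minus strand), the host of SNORD60, was at 3.89, 3.94 and 2.97 CPM in TC and at 6.36, 8.19 and 6.80 CPM in PC. Its groups did not overlap and the log2 fold change was 0.99 (SE 0.19, adjusted p 0.0029). SNHG1 was at 32.4, 31.6 and 29.5 CPM in PC, above all TC libraries (0.95, SE 0.09, adjusted p 1.9e-05).

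DANCR, a transcript named for its role against the differentiation of progenitor cells and the host of SNORA26, was at 30.0, 31.1 and 30.3 CPM in TC and at 58.4, 59.2 and 55.7 CPM in PC. It rose 1.90-fold (0.92, SE 0.07, adjusted p 4.9e-06), and its groups lay far apart. GAS5 rose by 0.61 (SE 0.13, adjusted p 0.0049), SNHG5 by 0.76 (adjusted p 0.00016), SNHG29 by 0.55 (adjusted p 0.00015) and ZFAS1 by 0.38 (adjusted p 0.0018). SNHG16 had a log2 fold change of -0.17 (adjusted p 0.3).

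SNHG15 and TAF1D were called in PC versus TC with adjusted p of 0.033 and 0.043, and both calls were lost in some alternatives. Both were lost with a filter on a summed count of at least 2, and TAF1D with the replicate block. SNHG15 was not called without any one of the TC libraries or without PC replicate 1 (adjusted p up to 0.132), nor TAF1D without CC replicate 1, TC replicate 2 or 3, any one of the PC libraries or RC replicate 2 (up to 0.145). SNHG10 was called higher without CC replicate 2, SNHG14 without CC replicate 2 or 3 and SNHG20 without TC replicate 1. SNHG18 was called lower without TC replicate 3. The lowest adjusted p over all alternatives was 0.0391 for SNHG10, 0.00308 for SNHG14, 0.0422 for SNHG20 and 0.041 for SNHG18. The replicate block and DESeq2 also called SNHG10 and SNHG14 higher, and the fit of only the 2 groups compared called SNHG14 higher.

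**Figure D4:**
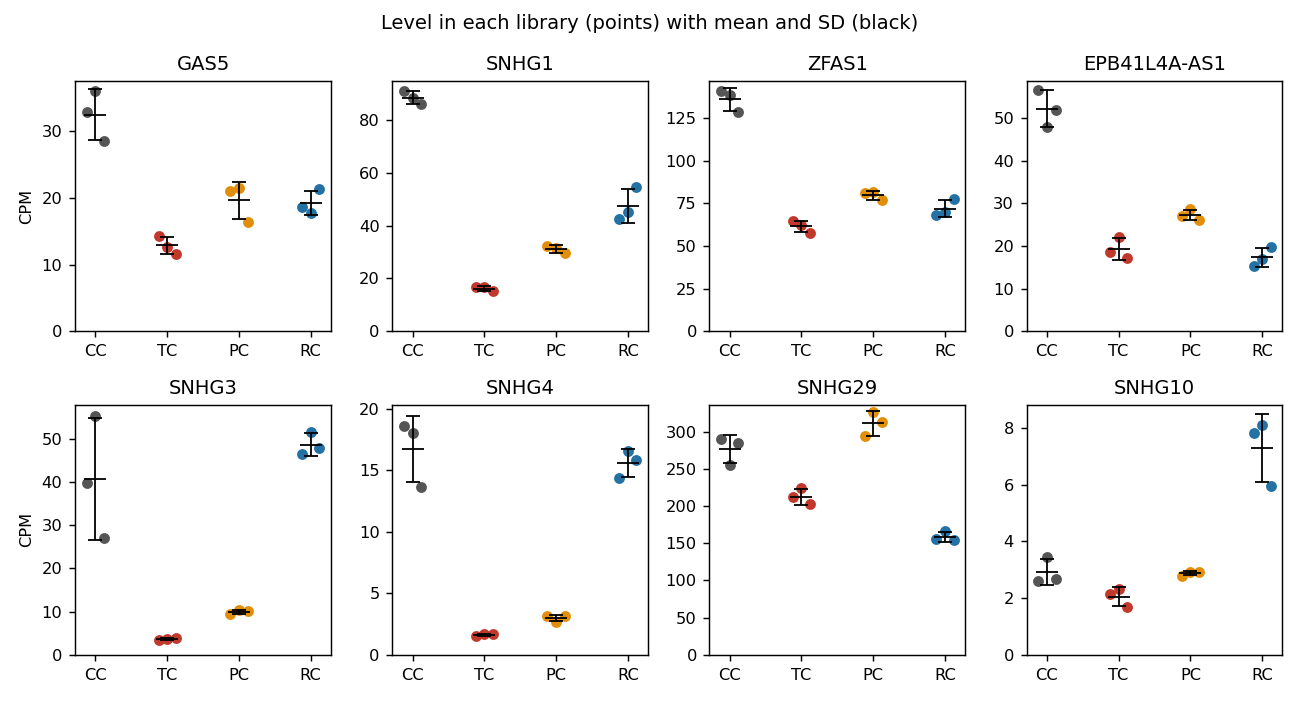
CPM (vertical axis, from 0) of 8 snoRNA host genes in each library (points) of CC, TC, PC and RC, with the mean and SD in black (n = 3). SNHG1 falls from 86.0 to 90.9 CPM in CC to 15.2 to 16.6 in TC, and SNHG29 is highest in PC and lowest in RC.

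The comparison of RC with CC asked what differed 9 days after the drug was removed. Here more host genes were lower than higher, and the share called higher was below that of all tested genes. EPB41L4A-AS1, SNHG7, SNHG8, TAF1D and ZFAS1 had the largest falls, and SNHG10 and SNHG30 were 2.50-fold and 2.17-fold higher. SNHG3, SNHG4, SNHG14, SNHG15, SNHG18, SNHG19, SNHG20 and SNHG21 did not pass the test.

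Of 26 host genes, 14 were lower in RC (53.8%) and 4 were higher (15.4%), against 19.1% and 18.2% of all tested genes. Beyond 1.5-fold 7 were lower and 1 was higher, against 2.52% and 1.35%. In 15 every RC library lay below every CC library and in 4 above, against 23.5% and 23.7%. The median log2 fold change was -0.36 over the host genes and 0.00 over all genes.

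EPB41L4A-AS1 (chromosome 5, 112160526 to 112164818, plus strand), the host of SNORA13, was at 56.6, 47.9 and 51.9 CPM in CC and at 15.3, 16.9 and 19.6 CPM in RC. It was 3.01-fold lower (log2 fold change -1.59, SE 0.11, adjusted p 7.0e-06), and the groups lay far apart. In TC it was at 18.6, 22.1 and 17.1 CPM (-1.44, adjusted p 2.9e-07) and in PC at 27.1, 28.6 and 26.1 CPM (-0.93, adjusted p 1.1e-05). It shares 51.2% of its exon bases with EPB41L4A on the opposite strand, and EPB41L4A had log2 fold changes of 0.06 in TC, 0.93 in PC and -0.83 in RC.

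SNHG7 (chromosome 9, 136721366 to 136728184, minus strand), the host of SNORA17A and SNORA17B, was at 108, 92.5 and 92.8 CPM in CC and at 39.2, 39.9 and 47.4 CPM in RC. The log2 fold change was -1.21 (SE 0.13, adjusted p 6.3e-05), and the groups did not overlap. DIPK1B, which shares 30.3% of its exon bases on the other strand, was lower as well (-0.55, adjusted p 0.030).

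SNHG8 (chromosome 4, 118278703 to 118285316, plus strand), the host of SNORA24, was at 78.1, 78.2 and 54.5 CPM in CC and at 31.4, 32.1 and 34.6 CPM in RC. The log2 fold change was -1.10 (SE 0.12, adjusted p 5.9e-05). In PC it was at 48.2, 54.1 and 53.0 CPM, just under the lowest CC library. PRSS12, which shares 37.6% of its exon bases on the other strand, had a log2 fold change of -0.91 in RC (adjusted p 0.00086).

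ZFAS1 was at 68.0, 70.2 and 77.5 CPM in RC, below all CC libraries (-0.92, SE 0.07, adjusted p 8.2e-06). GAS5 was at 18.6, 17.8 and 21.3 CPM (-0.76, SE 0.13, adjusted p 0.00082), and SNHG5 at 108, 108 and 115 CPM (-0.52, SE 0.09, adjusted p 0.0013). SNHG1 was at 42.5, 45.0 and 54.7 CPM (-0.90, SE 0.09, adjusted p 3.5e-05). Each stayed below every CC library.

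SNHG29 was at 156, 166 and 154 CPM in RC, below the CC libraries, with a log2 fold change of -0.80 (adjusted p 2.0e-05, SE 0.07). It was thus lower in TC, higher in PC and lower in RC, each by its own test. Of these calls only the one in PC, at 0.17, was lost in any alternative (6 of 19). SNHG16 was at 240, 254 and 260 CPM in RC (-0.31, SE 0.11, adjusted p 0.047), a call lost in 9 of 19 alternatives. TAF1D, which encodes a subunit of the RNA polymerase I factor SL1 and carries 8 snoRNAs, was at 90.1, 96.2 and 77.2 CPM in CC and at 42.3, 45.8 and 50.8 CPM in RC (-0.92, SE 0.10, adjusted p 6.7e-05).

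SNHG10 (chromosome 14, 95521943 to 95534889, minus strand), the host of SCARNA13, was at 2.62, 3.43 and 2.69 CPM in CC and at 7.83, 8.12 and 5.94 CPM in RC. Its log2 fold change was 1.32 (SE 0.18, adjusted p 0.0002). In TC it was at 2.15, 2.33 and 1.68 CPM (-0.51, adjusted p 0.025) and in PC at 2.80, 2.93 and 2.91 CPM (-0.02, adjusted p 0.95). GLRX5, its neighbour on the other strand and a gene of iron-sulfur cluster assembly, had a log2 fold change of 0.28 in RC (adjusted p 0.014).

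SNHG30 (chromosome 17, 35568050 to 35574900, plus strand), the host of SNORD7, was at 6.14, 9.69 and 5.48 CPM in CC and at 15.6, 16.6 and 14.2 CPM in RC. The log2 fold change was 1.12 (SE 0.21, adjusted p 0.0017), without overlap. CWF19L1, a protein-coding gene that carries SNORA12, was at 23.5, 27.2 and 29.4 CPM in CC and at 33.3, 33.4 and 31.0 CPM in RC (0.29, SE 0.08, adjusted p 0.020). DANCR was at 63.5, 77.6 and 68.2 CPM in CC and at 84.1, 80.4 and 78.5 CPM in RC (0.22, SE 0.07, adjusted p 0.031).

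The smaller calls in RC were lost in some alternatives. CWF19L1, DANCR and SNHG11 were not called when only the 2 groups compared were fitted. A filter on a summed count of at least 2 lost SNHG11 and SNHG16. SNHG16 was also lost with scaling to library totals alone. CWF19L1 was not called without CC replicate 1 or RC replicate 1 or 2 (adjusted p up to 0.0699 over all alternatives), DANCR without CC replicate 1 or 3 or RC replicate 1 or 2 (up to 0.112), SNHG11 without CC replicate 3 or RC replicate 1 or 2 (up to 0.137) and SNHG16 without CC replicate 1 or 2, TC replicate 2, PC replicate 2 or any one of the RC libraries (up to 0.146). SNHG3 was called higher without CC replicate 2 (log2 fold change up to 0.54), SNHG14 lower without CC replicate 2 (down to -0.34) and SNHG19 lower without CC replicate 3 (down to -0.58).

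In RC, 19.1% of all tested genes were lower and 18.2% were higher. Of 47 protein-coding hosts, 23 were lower and 6 higher (median -0.26), and of 20 snoRNP genes 1 was lower and 4 were higher. The higher counts of the snoRNP genes and of the decay factors were near the share of all genes. The decay factors had 1 lower and 4 higher, the TOP regulators 5 lower and 6 higher, and the other long non-coding RNAs 2 lower and 5 higher. All 6 proliferation markers were higher in RC than in CC (median 0.67), and nuclear-retained RNAs summed to between 244 and 266 CPM.

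From PC to RC, 16 host genes were higher and 6 lower, against 35.7% and 34.2% of all tested genes. Beyond 1.5-fold 8 were higher and 1 lower, against 20.2% and 18.5%. In 16 every RC library lay above every PC library and in 5 below, against 40.0% and 38.6%. SNHG4 rose most, by 2.37 (SE 0.14, adjusted p 1.5e-08), followed by SNHG3 at 2.28 (adjusted p 5.4e-07), SNHG21 at 2.19 (adjusted p 4.3e-06) and SNHG30 at 2.01 (adjusted p 4.5e-06). SNHG29 fell by 0.97 on the log2 scale (adjusted p 1.0e-07), and SNHG8 and EPB41L4A-AS1 fell by 0.66 each. GAS5 did not pass the test (-0.03, adjusted p 0.86). SNHG7, at -0.33 (adjusted p 0.046), was not called without CC replicate 2, TC replicate 2, PC replicate 1 or 2, or RC replicate 1 or 2 (adjusted p up to 0.183). Scaling to library totals alone lost the call too. ZFAS1, at -0.15 (adjusted p 0.067), was called lower without CC replicate 3 or RC replicate 3 (adjusted p down to 0.0264). Another scaling, the fit of only the 2 groups compared and DESeq2 also called it lower.

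The host genes were also described by what they carry and how they start, with no test. In TC, the 10 tested hosts of box C/D snoRNAs alone had a median log2 fold change of -1.12, the 10 of box H/ACA alone -1.19, the 3 of both -2.02 and the 3 of scaRNAs -0.51. Of the 7 tested hosts with a pyrimidine start in RefSeq, 6 were lower in TC (median -2.02), and of the 17 without one 15 were lower (median -1.09), against 34.7% of all tested genes. With the run allowed within 5 bases, the medians were -1.19 and -1.07. SNHG3, without a run at its annotated start, and SNHG4, with the longest run at the start among those printed, had log2 fold changes of -3.45 and -3.34 in TC.

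RefSeq placed 160 snoRNA genes inside the spans of 33 host genes, 84 of them in SNHG14, the host of the imprinted SNORD115 and SNORD116 clusters. The RefSeq table gives no strand, and whether each snoRNA gene lies in an intron was not checked. Of these, 156 were in the count table, 83 had no counts, 138 had under 50 summed counts, and 12 were tested, 7 of them in SNHG14, 2 each in GAS5 and TAF1D and 1 in SNHG3. In TC 9 of the 12 were lower and 0 were higher, against 34.7% and 33.2% of all tested genes. In PC 3 were lower and 0 higher, against 35.9% and 33.2%, and in RC 2 were higher and 0 lower, against 18.2% and 19.1%. The counts in PC and RC were near or below these shares. The SNORD116 genes are close copies, and reads could be divided among them.

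SNORA40, inside TAF1D, was at 3.85, 5.08 and 3.75 CPM in CC and at 0.570, 0.613 and 0.671 CPM in TC (log2 fold change -2.76, SE 0.25, adjusted p 1.1e-06). In RC it was at 4.19, 4.95 and 3.90 CPM (0.04, adjusted p 0.91), a range that overlapped CC while TAF1D itself was lower. The difference between the 2 genes was not tested.

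SNORA73A, inside SNHG3, was at 0.518, 0.904 and 0.741 CPM in CC and at 1.82, 1.64 and 1.74 CPM in RC (1.26, SE 0.39, adjusted p 0.024). The call was lost without CC replicate 1 or any one of the RC libraries (adjusted p up to 0.0863). In TC it was at 0.0777, 0 and 0.0933 CPM, close to the level of 3 counts. SNORD74, inside GAS5, was at 0.222, 0.294 and 0.275 CPM in CC and at 1.13, 1.19 and 0.870 CPM in RC (2.00, SE 0.52, adjusted p 0.010), while GAS5 was lower. SNORD80, also inside GAS5, had a log2 fold change of 0.28 in RC (adjusted p 0.59). The share of such short RNAs that these libraries capture was not measured, so reads from a snoRNA and from its precursor cannot be told apart.

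**Figure D5:**
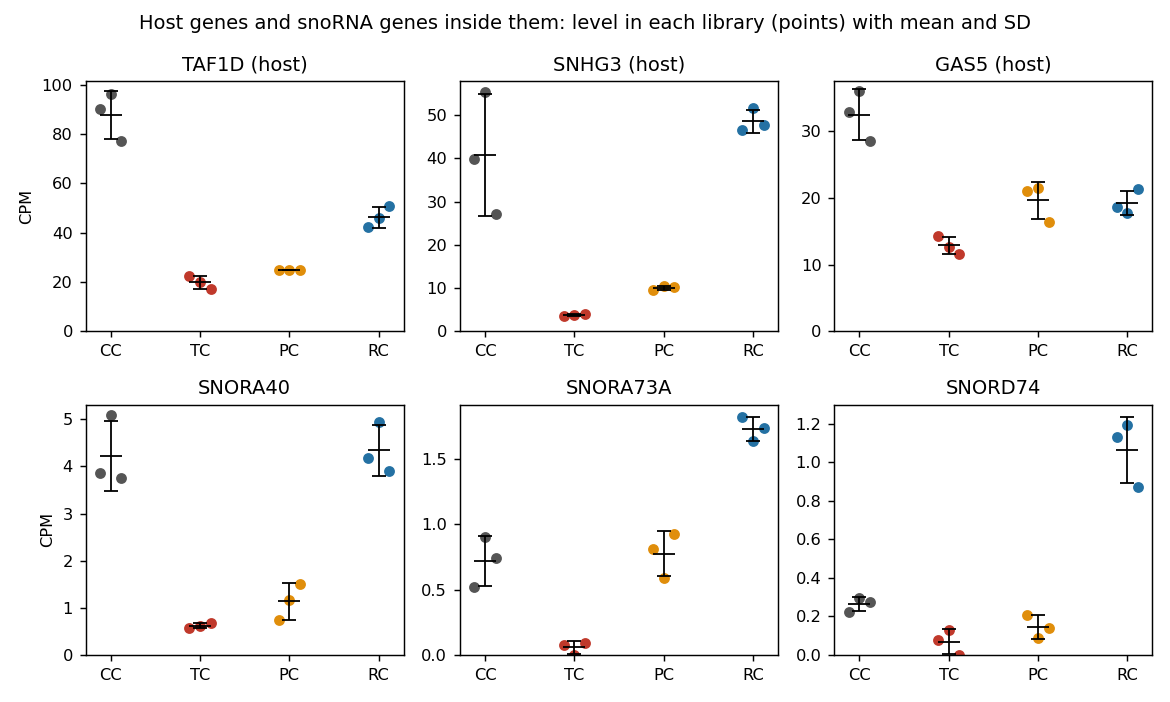
CPM (vertical axes, from 0) of 3 host genes (upper row) and of a snoRNA gene inside each (lower row) in each library (points) of CC, TC, PC and RC, with the mean and SD in black (n = 3). SNORA40 is at 3.90 to 4.95 CPM in RC while TAF1D is at 42.3 to 50.8 CPM, and SNORD74 is highest in RC while GAS5 is highest in CC.

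Of the tested host genes, 15 share exon bases with a gene of the table on the opposite strand, and in 6 the shared part was over 25%: EPB41L4A-AS1, SNHG6, SNHG7, SNHG8, SNHG21 and ZFAS1. The strand setting of the counting was not stated, so reads of such pairs cannot be told apart where it was not used. RCC1, which shares 5.92% of the exon bases of SNHG3 on the same strand and encodes the exchange factor of the GTPase Ran, had log2 fold changes of -1.05 in TC, -0.50 in PC and 0.53 in RC, against -3.45, -2.02 and 0.25 for SNHG3.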

How the data were processed

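The authors trimmed reads with fastp 0.20.1, aligned them to GRCh38.p13 with HISAT2 2.2.1 and made the deposited raw counts per gene over exons with HTSeq 0.13.5. Strand and multiple alignments were not stated in the sources used here. The members and lists were chosen with earlier results of these data known.

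Genes with a mean scaled count of at least 10 over 12 libraries (15916) were fitted in 1 quasi-likelihood model with TMM factors (0.965 to 1.02) by edgeR 4.0.16 (R 4.3.3), with a biological coefficient of variation of 0.182 and 8 residual degrees of freedom. A gene was called at a two-sided Benjamini-Hochberg adjusted p under 0.05, and beyond 1.5-fold with glmTreat. Replicates were checked for duplicates, and none were found. On simulated data for TC versus CC (15271 genes), 68 of 96 genes changed 2-fold, 88 of 98 changed 4-fold and 6 of 15077 unchanged genes were called. A count of 3 was at most 0.0794 CPM, a floor that covers counting error only.

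Full values were given for GAS5, for the 4 members with the highest mean CPM and for the 3 largest called rises and falls with a mean scaled count of at least 50 in each comparison with CC and in PC versus TC. From each list the largest called rise and fall in TC were named, with MALAT1, MKI67, FBL, DKC1, UPF1, LARP1 and overlapping neighbours. DANCR and TAF1D, the hosted snoRNAs and some other members were added after their values were seen. Alternatives were other scalings, filters, samples, a replicate block, DESeq2 1.42.0 and leaving out each library. Coordinates came from GENCODE v44, starts and snoRNAs from RefSeq.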

Additional observations from a re-analysis of the deposited data

Results flagged for a closer look

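For 3 snoRNA host genes the effects of TC and PC against the same CC libraries differed beyond 1.5-fold by the direct test of PC with TC (glmTreat in edgeR, adjusted p of at most 0.05). The log2 difference was 1.43 in SNHG3, 0.95 in SNHG1 and 0.92 in DANCR, each higher in all 3 PC libraries than in all 3 TC libraries.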

How the results depend on the processing

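Of 101 calls of host genes over the 5 comparisons, 91 were kept in all 19 alternatives, 10 were lost in at least 1, and 0 changed sign. Of 29 values that were not called, 10 were called in at least 1 alternative and 7 changed sign, each of these at most 0.14 from 0 on the log2 scale. The host genes lower in TC, PC and RC numbered 21 to 24, 22 to 22 and 12 to 14 when 1 library was left out. Those higher in PC (1) became 0 with a filter on a summed count of at least 2, 0 with the replicate block and 2 with DESeq2, and ranged from 0 to 2 when 1 library was left out. Those higher in RC (4) became 2 when only the 2 groups compared were fitted, and ranged from 2 to 5 when 1 library was left out. Those lower in PC than in TC (0) ranged from 0 to 1. Whether samples with the same replicate number shared more than a number was not settled. Their deviations correlated by -0.0473 to 0.202 over the 5 comparisons. In PC versus TC the same-number pairs were at 0.202, 0.0641 and 0.181. The different-number pairs of that comparison ran from -0.174 to -0.00344. Deviations within a group sum to 0 for each gene, so these pairs are not independent of the same-number ones. Same-number pairs were at 0.0446, 0.0482 and 0.0938 in TC versus CC. They were at 0.0656, 0.0470 and 0.00689 in PC versus CC, and at 0.0134, 0.0572 and -0.0244 in RC versus CC. In RC versus PC the same-number pairs were at 0.00634, -0.0473 and 0.0113. A replicate block was among the alternatives. Why calls changed between alternatives was not tested. Fits that leave a library out keep at least 2 libraries in each group. The 8 host genes that were not tested and most hosted snoRNAs had too few counts for a test, and the cause was not tested.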

Other observations

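The count table lists 4 numbered copies of SNHG32, which were not among the host genes. SNHG32_4 had 495 counts in PC replicate 2 and between 3 and 11 counts in each of the other 11 libraries.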
